A study of Mus musculus with 4 samples.

Results

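A group of 10 genes that mark fat cells were followed through the RNA of 4 mouse mammary tumors: Adipoq, Fabp4, Cidec, Plin1, Lep, Cfd, Retn, Lpl, Cd36 and Pparg. They were chosen by gene symbol, with earlier results of these data known, so counts set beside all genes are a description. All 10 were found among the 23746 rows of the expression tables. Of these 10, 5 (Fabp4, Cfd, Lpl, Cd36 and Pparg) had at least 1 FPKM in at least 2 tumors and could be tested. FPKM is the number of sequenced fragments of a gene scaled to its transcript length and to the size of the library, so levels can be set side by side between genes as well as between tumors. The tumors were 2 primary mammary tumors from triple-mutant females (WapCre;Rank;Brca1;p53, tumors 26043 and 26044) and 2 from double-mutant females (WapCre;Brca1;p53, tumors 26048 and 26050). Every animal thus carried the Cre transgene with floxed Brca1 and p53 alleles, and the triple mutants carried floxed Rank alleles as well. The WapCreC transgene is active in luminal and basal epithelial cells of the mammary gland without pregnancy, and its activity in fat cells was not examined here. The methods describe the females of both genotypes as littermates, without naming which tumors belong together. The age and grade of each sequenced tumor and the amount of mammary fat taken with it were not given in the sources used here. Nothing beyond separate tumor numbers separates the samples of a genotype, and p-values measure only the spread between these tumors.

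The mammary gland grows inside a fat pad, and a piece of bulk tissue holds RNA of whichever fat cells lie in it. Mature fat cells take up fatty acids released from blood lipoproteins, store them as triglyceride in a lipid droplet coated with specialised proteins, and secrete hormones. PPARG, a nuclear receptor, switches on many of the genes of this programme. White fat stores lipid, and brown or beige fat burns it to make heat. In bulk tissue, fewer fat cells and less RNA per fat cell cannot be told apart.

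The 4 tables held the same rows, 12150 to 12681 genes reached 1 FPKM in a tumor, and the FPKM of a tumor summed to 690775 to 796031. The number of reads is unknown, but among genes under 0.2 FPKM the commonest ratio between any 2 tumors lay within -0.1 to 0.1 on the log2 scale, so 1 read was worth nearly the same in each. Tnfrsf11a, the gene of RANK, had 2.07 and 0.962 FPKM in the triple-mutant tumors and 10.6 and 11.9 FPKM in the double-mutant tumors. The genotypes did not overlap for this gene, the side the labels call for, although the difference did not pass limma's test (Benjamini-Hochberg adjusted p = 0.225). Brca1 had 3.26 to 5.69 FPKM and Trp53 15.7 to 150 FPKM over the 4 tumors, and since both genotypes carry these alleles their levels do not check the labels.

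The promoters of 8 of the 10 genes were found in RefSeq (GRCm38.p6), as 11 entries that each run from 250 bases before to 50 bases after a start of transcription. No entry was found for Fabp4 and Lpl. A set of 3 is shown because they belong to genes at different points of the same programme: a hormone gene that was high in 1 tumor, a hormone gene that stayed near 0, and the receptor at the head of the programme. The Adipoq promoter lies at chr16:23146286-23146585 on the plus strand, the Lep promoter at chr6:29059971-29060270 on the plus strand and the second of 3 Pparg promoters at chr6:115362099-115362398 on the plus strand. Capitals mark matches to the motifs named below.
Adipoq: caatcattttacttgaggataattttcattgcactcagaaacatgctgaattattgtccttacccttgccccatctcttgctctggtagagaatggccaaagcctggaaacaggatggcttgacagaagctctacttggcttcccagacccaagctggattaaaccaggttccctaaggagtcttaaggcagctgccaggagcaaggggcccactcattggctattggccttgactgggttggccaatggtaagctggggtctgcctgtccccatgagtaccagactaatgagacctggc
Lep: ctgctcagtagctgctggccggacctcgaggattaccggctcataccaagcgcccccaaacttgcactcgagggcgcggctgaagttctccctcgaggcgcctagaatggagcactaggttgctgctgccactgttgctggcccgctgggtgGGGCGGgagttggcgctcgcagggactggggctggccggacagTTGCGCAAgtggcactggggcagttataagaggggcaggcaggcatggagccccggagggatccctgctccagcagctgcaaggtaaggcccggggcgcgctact
Pparg: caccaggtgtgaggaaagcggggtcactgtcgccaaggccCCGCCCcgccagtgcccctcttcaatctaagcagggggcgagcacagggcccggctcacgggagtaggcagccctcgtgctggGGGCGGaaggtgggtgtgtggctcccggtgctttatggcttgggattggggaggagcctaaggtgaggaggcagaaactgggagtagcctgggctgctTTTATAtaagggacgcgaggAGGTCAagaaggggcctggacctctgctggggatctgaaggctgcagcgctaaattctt
On both strands, the search covered the core site of nuclear receptors (AGGTCA), 2 such sites with 1 base between them (the direct repeat bound by PPARG with its partner RXR), a C/EBP motif (TTGCNNCAA), the TATA box (TATAAA) and the GC box (GGGCGG). TTGCNNCAA is not the usual C/EBP site, and the usual palindrome TTGCGCAA was added after the sequences had been seen. A core site was found in 3 of the 11 promoters, those of Cd36 and of the first and second Pparg starts, against 16.3% of 32851 promoters in the table. The direct repeat was in 0 of 11 and in 0.0396% of all promoters, and TTGCNNCAA was in 0 of 11 and in 2.08% of all. The palindrome was in 1 of 11, the Lep promoter, 55 to 48 bases before the start, and in 0.183% of all. A TATA box was in 1 of 11, that of the second Pparg start, against 13.6% of all, and a GC box in 4 of 11 against 35.7%. These matches describe the letters of a short window and say nothing of binding in the tumors.

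All 10 fat cell genes were highest in double-mutant tumor 26048, and for 9 of them, all but Lep, the level there was at least 4 times that of the next tumor after 1 was added to the FPKM. Among all 23746 rows, 18.8% were highest in tumor 26048, and 0.396% were highest there by this margin. The mean of log2(FPKM + 1) over the 10 genes was 5.54 in tumor 26048, 1.53 in the other double-mutant tumor 26050, and 0.754 and 1.28 in triple-mutant tumors 26043 and 26044. The 10 genes together held 0.303% of all FPKM in tumor 26048 and 0.00169% to 0.0335% in the other tumors. Of the 10 genes, 9 reached 1 FPKM in tumor 26048, against 3 or 4 in each of the others. The high level was thus seen in 1 of the 4 tumors, and not in the other tumor of its genotype.

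**Figure D1:**
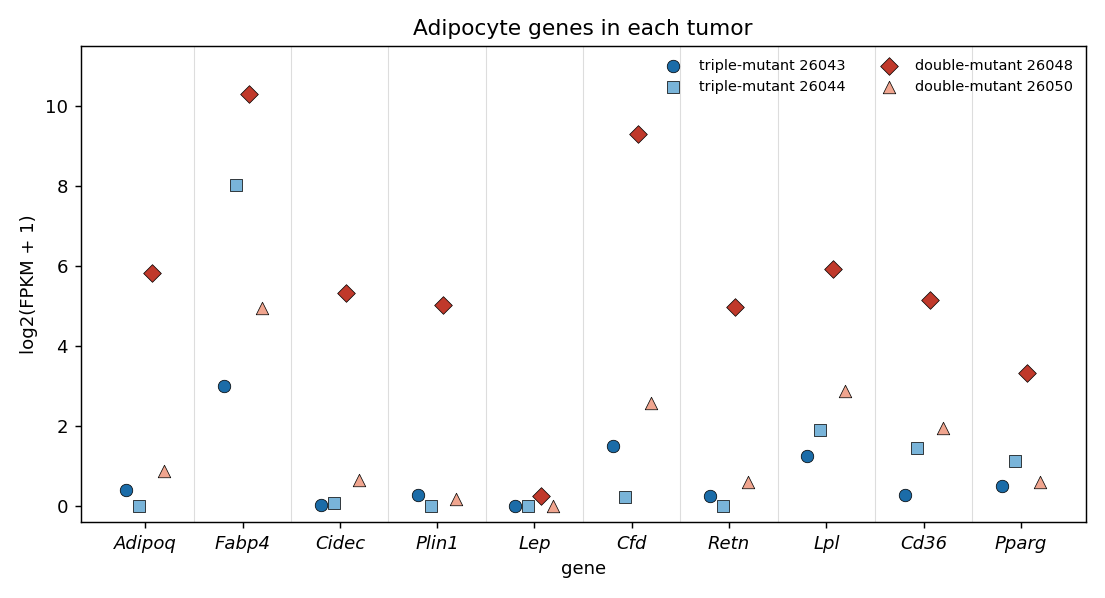
Level of the 10 fat cell genes in each tumor as log2(FPKM + 1), with 1 point per tumor and no averaging. Double-mutant tumor 26048 is the highest point for every gene, with a mean of 5.54 over the 10 genes against 0.754 to 1.53 in the other tumors, and Fabp4 is the gene with a second high point, in triple-mutant tumor 26044.

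Among the secreted products of fat, Adipoq (chr16:23146536-23157968, adiponectin, a hormone made almost solely by fat cells) had 0.328 and 0 FPKM in the triple-mutant tumors and 56.0 and 0.829 FPKM in the double-mutant tumors 26048 and 26050. Tumor 26048 had 67.5 times the level of tumor 26050, and the genotypes did not overlap because tumor 26050 stood slightly above tumor 26043. Cfd (chr10:79890853-79892656, adipsin, a complement protease that fat cells release in large amounts) had 1.85 and 0.177 FPKM in the triple-mutant tumors and 625 and 4.99 FPKM in tumors 26048 and 26050. This was the second most abundant of the 10 genes in tumor 26048, at 125 times the next tumor. The Cfd value of tumor 26048 lay above its own Cufflinks interval of 338 to 357 FPKM. Retn (chr8:3655770-3659818, resistin, a hormone of fat cells in the mouse) had 0.189 and 0 FPKM in the triple-mutant tumors and 30.5 and 0.508 FPKM in tumors 26048 and 26050. It followed the same order as Adipoq. Lep (chr6:29060221-29073876, leptin, the satiety hormone released chiefly by white fat) was listed at 0 in tumors 26043, 26044 and 26050 and had 0.202 FPKM in tumor 26048. Leptin RNA was therefore close to the lower end of the scale in the tumor where the other hormones were high.

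The genes of the lipid droplet followed the hormones. Plin1 (chr7:79721164-79732776, perilipin 1, the main coat protein of the droplet in fat cells) had 0.213 and 0 FPKM in the triple-mutant tumors and 31.4 and 0.129 FPKM in tumors 26048 and 26050. Here the genotypes overlapped, since tumor 26043 was above tumor 26050, and tumor 26048 had 147 times the next level, a level whose Cufflinks interval reached 0. Cidec (chr6:113424636-113435755, a protein that fuses droplets into the single large droplet of white fat cells) had 0.0298 and 0.0631 FPKM in the triple-mutant tumors and 39.4 and 0.571 FPKM in tumors 26048 and 26050. Tumor 26050 was above both triple-mutant tumors, and tumor 26048 had 69.0 times its level.

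The genes of fatty acid supply were detected more widely. Lpl (chr8:68880555-68906932, lipoprotein lipase, which frees fatty acids from blood lipoproteins) had 1.40 and 2.72 FPKM in the triple-mutant tumors and 59.6 and 6.32 FPKM in tumors 26048 and 26050. Cd36 (chr5:17781690-17888959, a fatty acid transporter also found on macrophages and capillary endothelium) had 0.217 and 1.76 FPKM in the triple-mutant tumors and 34.6 and 2.91 FPKM in tumors 26048 and 26050. For both genes each double-mutant tumor was above each triple-mutant tumor, and the ratio of tumor 26048 to tumor 26050 was 9.43 for Lpl and 11.9 for Cd36. Fabp4 (chr3:10204343-10208576, a fatty acid carrier of fat cells that is also made by capillary endothelium and macrophages) had 7.01 and 261 FPKM in the triple-mutant tumors and 1263 and 29.9 FPKM in tumors 26048 and 26050. It was the most abundant of the 10 genes in every tumor, the genotypes overlapped, and triple-mutant tumor 26044 was second to tumor 26048 by 4.84 times. Pparg (chr6:115361221-115490401, the receptor at the head of the programme) had 0.421 and 1.19 FPKM in the triple-mutant tumors and 9.03 and 0.515 FPKM in tumors 26048 and 26050. Tumor 26044 was second for this gene as well, and tumor 26048 had 7.61 times its level.

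The order of the 3 other tumors was not shared by all genes. Tumor 26050 was second for 6 of the 10 genes, tumor 26044 for Fabp4 and Pparg, and tumor 26043 for Plin1, while Lep was listed at 0 in all 3. The proportions of the genes to each other were close for some pairs and far apart for others. Relative to Adipoq, Retn FPKM was 0.576 in tumor 26043, 0.545 in tumor 26048 and 0.613 in tumor 26050, and Fabp4 FPKM was 21.4, 22.6 and 36.1 times that of Adipoq in the same tumors. The Retn values of tumors 26043 and 26050 had intervals that reached 0, so their ratios are loose. Cidec was 0.0909, 0.704 and 0.689 of Adipoq in these tumors and Plin1 0.649, 0.561 and 0.155. Cfd was 5.63, 11.2 and 6.02 times Adipoq and Cd36 0.661, 0.619 and 3.51 times. No order of the tumors was common to these ratios. Lpl was 1.06 times Adipoq in tumor 26048 but 4.27 and 7.62 times in tumors 26043 and 26050. In each of these tumors the Lpl value lay below its Cufflinks interval (96.0 to 102 FPKM in tumor 26048), so these ratios are loose. Pparg was 0.161 of Adipoq in tumor 26048 and 1.28 and 0.621 in the others. In tumor 26044, where Adipoq was listed at 0, no such ratio exists, and Fabp4 alone made up most of the summed 267 FPKM of the 10 genes.

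Triple-mutant against double-mutant tumors, the comparison of the study, gave a lower mean in the triple mutants for all 10 genes, but none was called. The median log2 fold change, triple-mutant minus double-mutant on the log2(FPKM + 1) scale, was -2.67 over the 10 genes and -2.69 over the 5 tested, against -0.02 over all 12752 genes tested. By limma with Benjamini-Hochberg adjustment over all genes tested, 0 of the 5 tested fat cell genes and 0% of all genes passed an adjusted p of 0.05, while 1252 genes (754 with a higher mean in the triple mutants, 498 in the double mutants) had an unadjusted p under 0.05, none of them among the 5. Cfd had a fitted log2 fold change of -5.06 (SE 2.28, adjusted p = 0.546 in limma), and Lpl one of -2.82 (SE 1.07, adjusted p = 0.511 in limma). The fitted value was -2.69 for Cd36 (SE 1.16, adjusted p = 0.535 in limma), -2.11 for Fabp4 (SE 2.44, adjusted p = 0.789 in limma) and -1.15 for Pparg (SE 0.97, adjusted p = 0.712 in limma). The untested genes had differences of -3.15 (Adipoq), -2.93 (Cidec), -2.66 (Retn), -2.46 (Plin1) and -0.13 (Lep). The exact two-sided permutation test over the 4 tumors cannot give a p below 0.333, and this value was reached by Adipoq, Cidec, Cfd, Retn, Lpl and Cd36.

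These 6 genes, 6 of 10, were higher in both double-mutant tumors than in both triple-mutant tumors, against 16.2% of all rows, and 0 of 10 were higher in both triple-mutant tumors, against 16.5% of all rows. Among the tested genes the count was 3 of 5, against 22.9% of genes tested. Within the double mutants the 2 tumors differed by a median of 4.53 on the log2 scale over the 10 genes, against 0.36 over all genes tested. The triple-mutant tumors differed by a median of 0.52 against 0.45 over all genes tested. Tumor 26050 lay 0.54 from tumor 26043 and 0.58 from tumor 26044 over the 10 genes, little more than the 0.44 and 0.57 of all genes tested. In tumors 26043, 26044 and 26050, 7, 6 and 6 of the 10 genes were under 1 FPKM, where adding 1 shrinks differences. Tumor 26048 lay 4.81 and 4.50 from tumors 26043 and 26044, so over the 10 genes it was about as far from the tumor of its own genotype as from those of the other.

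**Figure D2:**
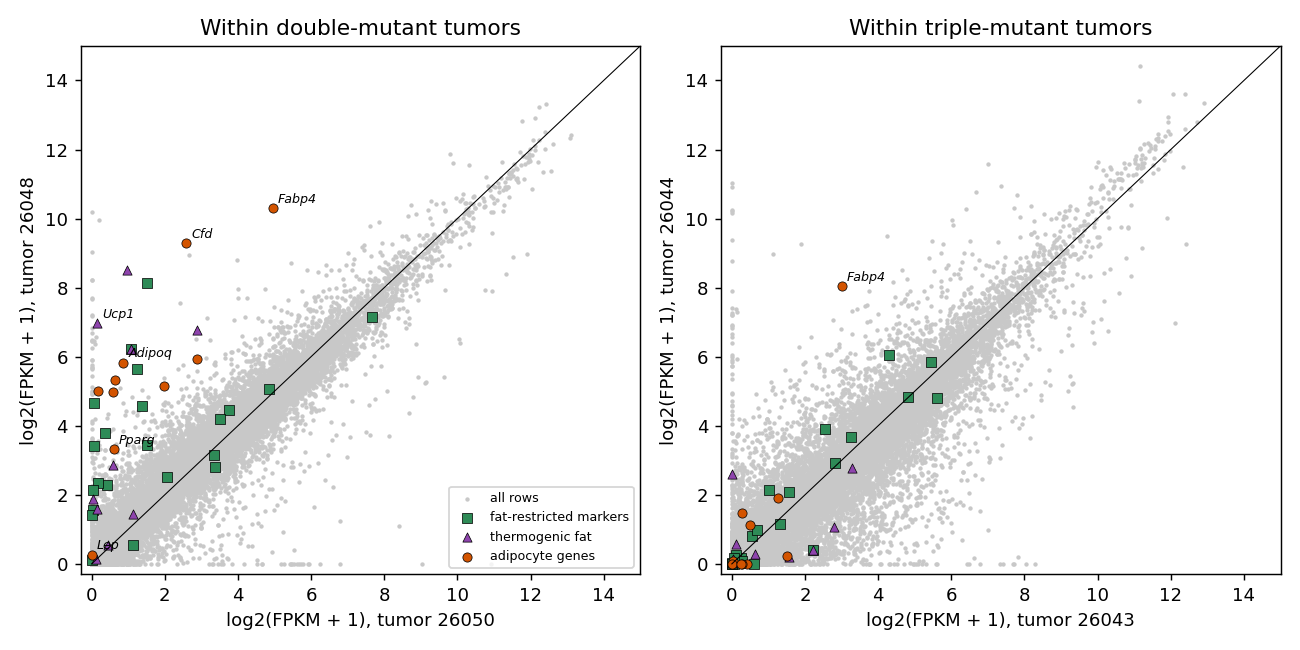
Each row of the tables in the 2 double-mutant tumors (left) and the 2 triple-mutant tumors (right), both axes log2(FPKM + 1), with the line of equal level. The 10 fat cell genes (orange), fat-restricted markers (green) and thermogenic genes (purple) lie mostly above the line for tumor 26048, with a median gap of 4.53 over the 10 genes, and near it between the triple-mutant tumors (0.52), with Fabp4 set apart.

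With tumor 26048 left out, 7 of the 10 genes were still lower in the triple mutants and 6 were below tumor 26050 in both triple-mutant tumors, but the median log2 fold change over the 10 genes was -0.53. The sign turned for Fabp4 (0.57) and Pparg (0.22), and Lep was listed at 0 in all 3 remaining tumors. The largest of the remaining differences were those of Cfd (-1.71), Lpl (-1.29) and Cd36 (-1.09). Without tumor 26050 the median was -4.82. Leaving out a triple-mutant tumor changed less, -2.55 without tumor 26043 and -2.95 without tumor 26044, except that Fabp4 turned to 0.41 without tumor 26043.

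**Figure D3:**
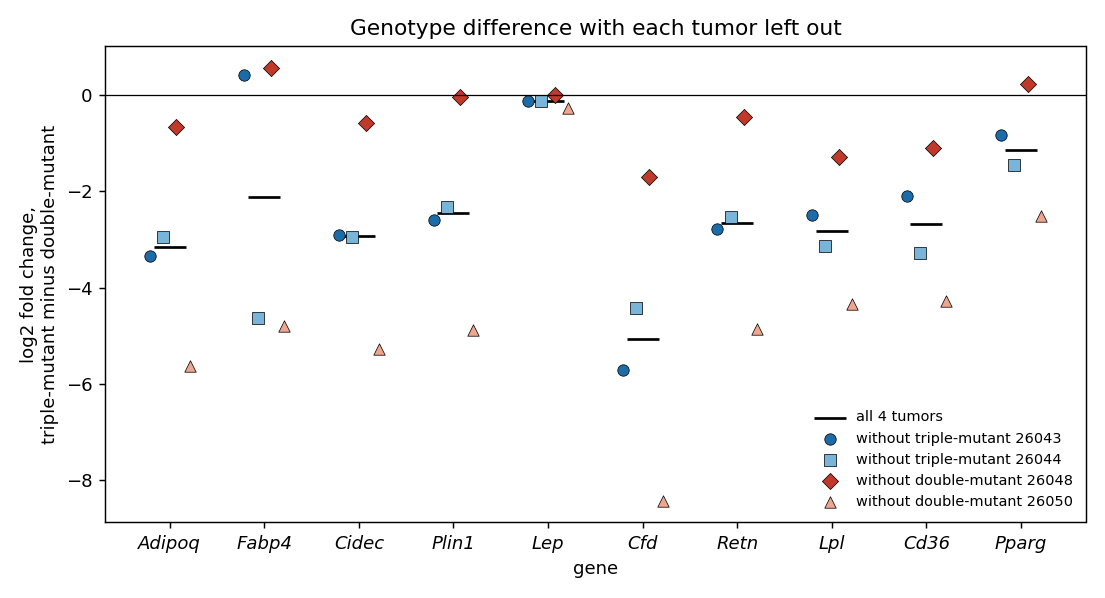
Log2 fold change of each fat cell gene, triple-mutant minus double-mutant on the log2(FPKM + 1) scale, with all 4 tumors (bars) and with each tumor left out (points). Without double-mutant tumor 26048 the values lie between -1.71 (Cfd) and 0.57 (Fabp4), and without tumor 26050 they reach -8.42 (Cfd).

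Further genes known from mature fat cells were read in the same tables, from 22 fat-restricted markers. Of these, 15 were highest in tumor 26048, 7 of them by at least 4 times on the FPKM + 1 scale, 5 were higher in both double-mutant tumors and 2 in both triple-mutant tumors, near the 16.2% and 16.5% of all rows, and 0 of the 12 tested were called by limma. The same shares of all rows are set beside such counts in the lists that follow. For lists of mostly tested genes the nearer background is that of genes tested. There 22.9% were higher in both double-mutant tumors and 2722 of 12752 in both triple-mutant tumors. Car3 (carbonic anhydrase 3, one of the most abundant proteins of mouse fat) had 0.521 and 0 FPKM in the triple-mutant tumors and 277 and 1.87 FPKM in tumors 26048 and 26050. A further 3 genes, named after their values were seen, were Adrb3 (the beta-3 adrenergic receptor of fat cells) with 9.56 FPKM in tumor 26048 and at most 0.0401 FPKM elsewhere, Ces1d (a lipase of fat and liver) with 24.4 FPKM against at most 0.0369, and Mrap (an accessory protein of the corticotropin receptor) with 12.7 against at most 0.28. The markers not highest in tumor 26048 were highest in tumor 26044 (4) or tumor 26050 (3), 0 of them by that margin. Cav1 (caveolin 1), 1 of the 2 higher in both triple-mutant tumors, had 42.4 and 56.0 FPKM there. In tumors 26048 and 26050 it had 32.3 and 27.6 FPKM. Cav2 (caveolin 2) had another pattern, with 47.4 and 26.8 FPKM in the triple-mutant and 141 and 203 FPKM in the double-mutant tumors. Tumor 26050 was the highest for Cav2 (adjusted p = 0.284 in limma). Lgals12 (a galectin of the fat cell droplet) had 1.51 and 1.22 FPKM in the triple-mutant and 4.77 and 3.14 FPKM in the double-mutant tumors (adjusted p = 0.48 in limma). Without tumor 26048 the median log2 fold change over the 22 markers was 0.05, against -0.69 with all tumors.

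Genes of heat-producing fat were high in the same tumor. Of 10 such genes, 7 were highest in tumor 26048, 5 by the margin of 4 times, and 0 of the 5 tested were called by limma. Cox8b (a cytochrome oxidase subunit of brown fat and muscle) had 0 and 5.03 FPKM in the triple-mutant tumors and 367 and 0.962 FPKM in tumors 26048 and 26050. Cox7a1 (another subunit of this kind) had 8.78 and 5.92 FPKM in the triple-mutant tumors and 107 and 6.41 FPKM in tumors 26048 and 26050. Ucp1 (the uncoupling protein that defines brown and beige fat cells, named after its values were seen) was at 0 and 0.0225 FPKM in the triple-mutant tumors and at 125 and 0.113 FPKM in tumors 26048 and 26050. In tumor 26048, Ucp1 had more FPKM than Adipoq (56.0) and Lep (0.202). Cidea (a droplet protein of brown fat) had 73.0 FPKM in tumor 26048 and at most 3.65 elsewhere, Otop1 (a proton channel found in brown fat) 6.34 and at most 0.511, and Elovl3 (which makes very long fatty acids in brown fat) 2.69 and at most 0.487. They too were named after their values were seen. Other genes of the list did not stand out there. The developmental regulators Prdm16 and Zic1 stayed under 1 FPKM in all 4 tumors. Tumor 26043 was the highest for 3 of the 10, 0 of them by the margin of 4 times. These were Dio2 (the deiodinase that activates thyroid hormone), Ppargc1a (a coactivator) and Prdm16.

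**Figure D4:**
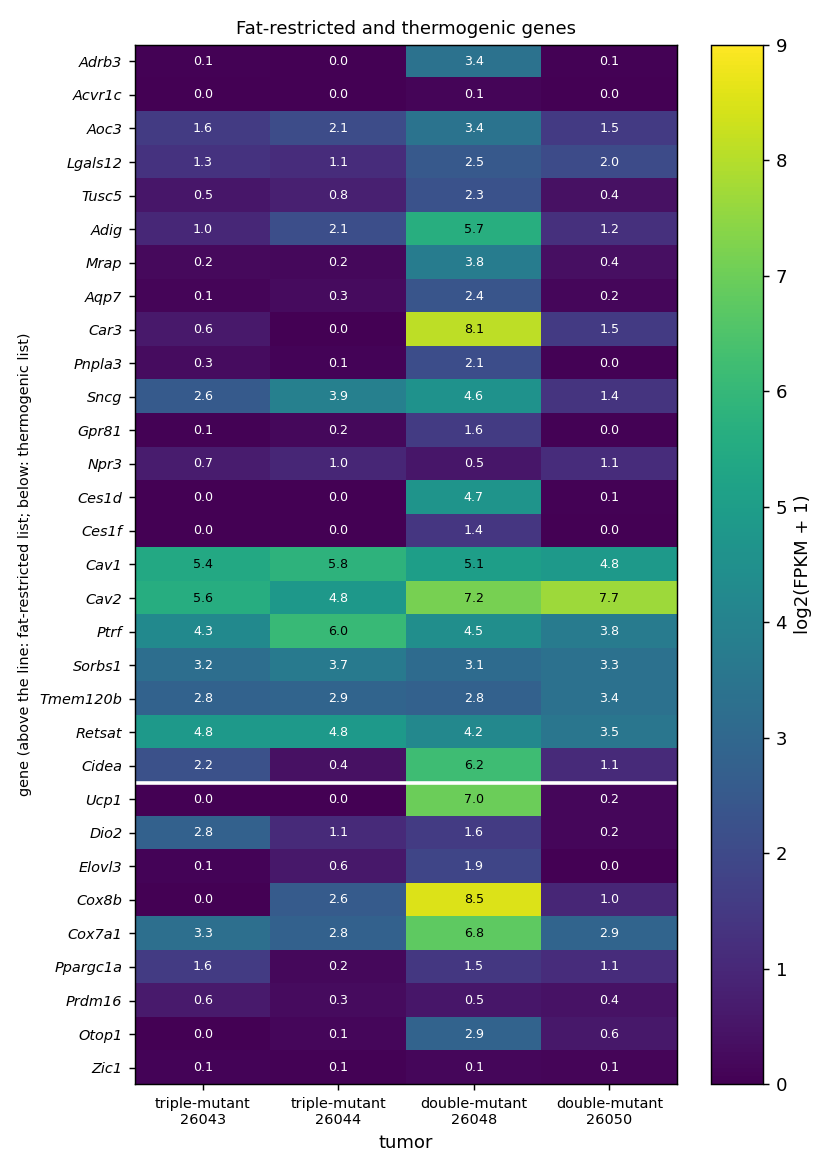
Level of 22 fat-restricted markers (above the white line) and of thermogenic genes (below it) in each tumor, as log2(FPKM + 1) printed in each cell. Cidea belongs to both lists and is drawn once, in the upper block, where tumor 26048 has the highest value for 15 of 22 markers, Car3 at 277 FPKM among them.

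The lipid metabolism around the 10 genes was described by 2 lists. Of 16 genes of triglyceride synthesis and glucose uptake, 13 were highest in tumor 26048, 4 by at least 4 times, 9 were higher in both double-mutant tumors and 0 in both triple-mutant tumors, with 0 of 15 tested called by limma and a median log2 fold change of -0.92 over the tested genes. Gpd1 (which makes the glycerol backbone of triglyceride) had 7.95 and 1.77 FPKM in the triple-mutant and 138 and 22.3 FPKM in the double-mutant tumors (adjusted p = 0.476 in limma). Agpat2 (which adds a fatty acid to that backbone) had 24.8 and 15.6 FPKM in the triple-mutant and 106 and 36.8 FPKM in the double-mutant tumors, and Elovl6 (which lengthens fatty acids) had 5.67 and 2.39 against 17.4 and 15.5 FPKM. The most abundant genes of this list were Scd1 and Fasn. Fasn (fatty acid synthase) had 66.9 and 33.3 FPKM in the triple-mutant and 179 and 56.4 FPKM in the double-mutant tumors, and Scd1 (the desaturase of fatty acids) had 77.3 and 51.7 against 363 and 57.8 FPKM. For these 2 genes the genotypes overlapped. Pck1 (which feeds glycerol synthesis in fat cells, named after its values were seen) had 94.3 FPKM in tumor 26048 and at most 0.0781 FPKM elsewhere. Slc2a4 (GLUT4, the insulin-regulated glucose transporter of fat and muscle) went another way, with 3.01 and 20.3 FPKM in the triple-mutant and 9.06 and 0.51 FPKM in the double-mutant tumors.

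Of 14 genes of the lipid droplet and of lipolysis, 7 were highest in tumor 26048, 2 by at least 4 times, 6 were higher in both double-mutant tumors and 1 in both triple-mutant tumors, with 0 of 12 tested called by limma and a median log2 fold change of -0.86. Lipe (hormone-sensitive lipase) had 10.5 and 6.63 FPKM in the triple-mutant and 55.4 and 24.0 FPKM in the double-mutant tumors (adjusted p = 0.424 in limma). Abhd5 (the activator of the first lipase of the pathway) had 17.3 and 9.37 against 26.3 and 45.7 FPKM. The most abundant genes of this list did not single out tumor 26048. Hilpda (an inhibitor of lipolysis induced by low oxygen) had 19.3 and 26.8 FPKM in the triple-mutant tumors and 37.9 and 566 FPKM in tumors 26048 and 26050, and Plin2 (the droplet coat of most other cell types) had 41.7, 112, 132 and 126 FPKM in tumors 26043, 26044, 26048 and 26050. Without tumor 26048 the median over the 14 genes was -0.01.

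The regulators upstream of the programme shared the highest tumor with the 10 genes in part, but not the margin. Of 16 adipogenic transcription factors, 9 were highest in tumor 26048, beside 18.8% of all rows, but 0 by at least 4 times. Their mean log2(FPKM + 1) minus the mean of the 4 tumors was 0.35 in tumor 26048 and -0.47 in tumor 26050. In tumors 26043 and 26044 it was 0.14 and -0.02. Of the 16, 4 were higher in both triple-mutant tumors and 2 in both double-mutant tumors. By limma, 0 of 13 tested were called, and their median log2 fold change was 0.21. Cebpd (an early factor of fat cell formation) had 25.9 and 23.5 FPKM in the triple-mutant and 12.4 and 3.27 FPKM in the double-mutant tumors (log2 fold change 1.76, SE 0.61, adjusted p = 0.496 in limma). Cebpb (its early partner) was high everywhere, at 591 and 1208 against 693 and 537 FPKM. Rxra (the partner of PPARG) had 35.7 and 21.0 against 20.0 and 12.3 FPKM, Srebf1 (a regulator of lipid synthesis) 76.5 and 61.9 against 136 and 83.7 FPKM, and Ppargc1b (a coactivator) 2.23 and 4.42 against 1.12 and 1.45 FPKM. Pparg itself, unlike these 16 factors, was highest in tumor 26048 by the margin of 4 times.

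Other secreted factors of fat that further tissues make as well gave a mixed picture: of 14, 8 were highest in tumor 26048, 1 by at least 4 times, with 3 higher in both double-mutant and 1 in both triple-mutant tumors, 0 of 12 tested called by limma and a median log2 fold change of -0.40. Rarres2 (chemerin) had 13.4 and 9.72 FPKM in the triple-mutant and 31.2 and 28.0 FPKM in the double-mutant tumors (adjusted p = 0.396 in limma), and Nampt (visfatin) 11.2 and 6.08 against 12.4 and 14.6 FPKM. Lcn2 (lipocalin 2, also a product of neutrophils and epithelium) reached 1031 to 3186 FPKM in the 4 tumors, and Hp (haptoglobin) 295 and 18.3 against 488 and 5.28 FPKM. Of 9 markers of fat cell progenitors, 1 was highest in tumor 26048, 2 were above the other genotype in both triple-mutant tumors and 2 in both double-mutant tumors, and 0 of 8 tested were called by limma. Pdgfra (a receptor of such progenitors and of other fibroblasts) had 2.90 and 19.1 FPKM in the triple-mutant and 1.63 and 1.44 FPKM in the double-mutant tumors. Pi16 (a marker of early progenitors) had 0.683 and 0.381 against 3.17 and 4.90 FPKM. Cd24a and Ly6a, the most abundant of this list, had 89.5 to 368 and 37.1 to 635 FPKM over the 4 tumors, with the highest values in tumors 26050 and 26043. Over the 9 progenitor markers the highest tumor was 26043 for 3, 26044 for 2 and 26050 for 3.

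Markers of other cell types differed between the tumors too, and their part in the levels of the 10 genes was not tested. The list means below are of log2(FPKM + 1) minus the mean of the 4 tumors, on which the 10 fat cell genes stood at -1.52, -0.99, 3.27 and -0.75 in tumors 26043, 26044, 26048 and 26050. Fibroblast markers stood at -0.32, -1.20, 1.18 and 0.34 in the same order, and 10 of 11 were highest in tumor 26048, 0 by at least 4 times. Col1a1 (the main collagen chain) had 102 and 32.6 FPKM in the triple-mutant and 486 and 200 FPKM in the double-mutant tumors. Macrophage markers stood at -0.03, -0.79, 0.61 and 0.21, and 10 of 12 were highest in tumor 26048, again 0 by that margin. Their summed level was 801 and 433 FPKM in the triple-mutant and 1217 and 856 FPKM in the double-mutant tumors, a range far narrower than that of the 10 genes (11.7 and 267 against 2149 and 46.7 FPKM). Milk secretion markers stood at -1.09, -2.37, 2.02 and 1.44, and 9 of 10 were higher in both double-mutant tumors. Of the 10, 7 were highest in tumor 26050, 3 of them by at least 4 times. Lalba, for example, had 3813 FPKM there against 499 FPKM in tumor 26048. The other 3, Csn2, Fabp3 and Glycam1, were highest in tumor 26048, all by that margin. Csn2 had 34.2 and 2.90 FPKM in the triple-mutant tumors and 443 and 14.8 FPKM in tumors 26048 and 26050. Skeletal muscle markers, from a tissue that also makes Lpl, Cd36 and Cox8b, were highest in tumor 26050 in 10 of 10 cases and summed to 2.54 FPKM in tumor 26048. The mean of the epithelial markers was highest in tumor 26043 (1.82) and lowest in tumor 26044 (-1.41), but the markers were divided, 5 of 10 being highest in tumor 26043 and 5, Epcam (516 FPKM), Krt8, Krt18, Cdh1 and Cldn7, in tumor 26048. Lymphocyte markers lay between -0.15 and 0.12. Fibroblast and macrophage markers thus shared the highest tumor with the 10 genes but not the margin. Both double-mutant tumors were above both triple-mutant tumors for 6 of 11 fibroblast, 7 of 12 macrophage, 4 of 10 epithelial, 4 of 10 muscle, 1 of 10 lymphocyte and 0 of 13 endothelial markers, and both triple-mutant tumors were the higher ones for 0, 0, 3, 0, 4 and 4 of them, beside 16.2% and 16.5% of all rows. Among genes tested, 22.9% were higher in both double-mutant tumors and 2722 of 12752 in both triple-mutant tumors. In the 7 marker lists, 0 tested genes were called by limma.

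Capillaries also make Fabp4 and Cd36, and the part of endothelial cells in the levels of these genes was not tested. Endothelial markers stood at -0.31, 0.996, 0.03 and -0.72 in tumors 26043, 26044, 26048 and 26050. They summed to 108, 335, 132 and 75.8 FPKM, and 11 of 13 were highest in tumor 26044. Gpihbp1 (which holds lipoprotein lipase on capillaries) had 14.6 and 108 FPKM in the triple-mutant and 11.7 and 10.5 FPKM in the double-mutant tumors, and Cldn5 (claudin 5, of endothelial junctions) 8.05 and 32.05 against 7.58 and 3.11 FPKM. Tumor 26044 is the tumor in which Fabp4 reached 261 FPKM while Adipoq, Plin1, Retn and Lep were listed at 0. Cd36 did not share this order, with 1.76 FPKM in tumor 26044 and 2.91 FPKM in tumor 26050, where the endothelial mean was lowest. In tumor 26048, with Fabp4 at 1263 FPKM, the endothelial markers were close to their mean over the tumors.

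**Figure D5:**
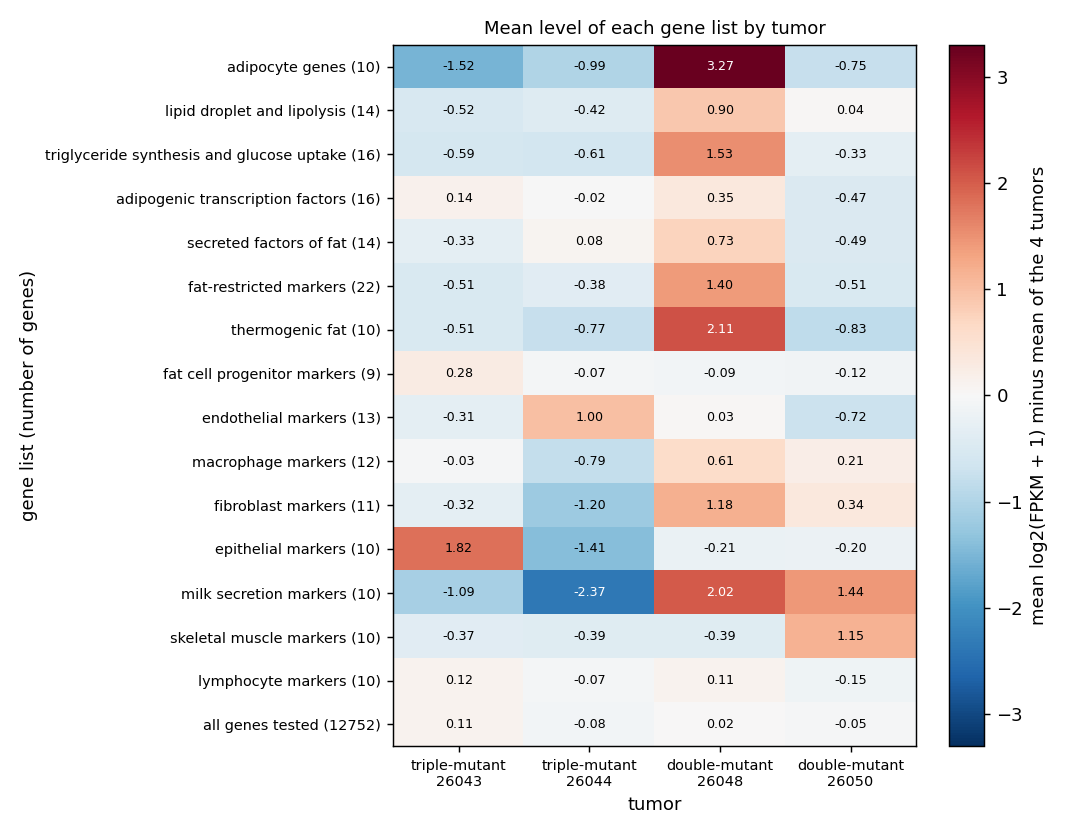
Mean of log2(FPKM + 1) minus the mean of the 4 tumors for each gene list (rows, number of genes in brackets) in each tumor (columns). The 10 fat cell genes have the most extreme value, 3.27 in tumor 26048, followed there by thermogenic genes (2.11), milk secretion markers (2.02), triglyceride synthesis (1.53) and fat-restricted markers (1.40), and endothelial markers peak in tumor 26044 (0.996).

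The genes whose pattern over the 4 tumors was most like the mean of the 5 tested fat cell genes were ranked by Euclidean distance between centred log2(FPKM + 1) values. With 4 points per gene this is a description. The nearest was Adig (adipogenin, a small membrane protein of fat cells) at a distance of 0.91, with 1.01 and 3.43 FPKM in the triple-mutant and 49.5 and 1.35 FPKM in the double-mutant tumors. It was followed by Gadd45a (1.06), Fabp3 (1.23), Chn2 (1.32), Scrg1 (1.32), Scrn1 (1.42), E230016M11Rik (1.45), Orm1 (1.49), Thrsp (1.552) and Nnmt (1.56). Thrsp (a regulator of lipid synthesis in fat) had 0.876 and 15.9 FPKM in the triple-mutant and 247 and 14.95 FPKM in the double-mutant tumors, and Fabp3 (a fatty acid carrier of muscle, brown fat and lactating gland) had 1.87 and 2.90 against 47.0 and 6.32 FPKM. Orm1 has close paralogs and E230016M11Rik overlaps Gadd45a, so their values are uncertain. Among the 5 tested genes themselves, Cd36 (0.72) and Lpl (0.92) lay nearest to the mean, and Pparg (1.98), Fabp4 (2.88) and Cfd (3.40) farther off.

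Of these 10 neighbours in pattern, 4 (40%) lie on chromosome 6, against 4.9% of genes tested (625 of 12752). Lep, Cidec and Pparg lie on chromosome 6 as well. The 4 come from 2 places, since E230016M11Rik overlaps Gadd45a and Scrn1 lies close to Chn2. Genes next to the fat cell genes on the chromosome did not share their level. Over the tested genes within 1 Mb, the median level in tumor 26048 relative to the mean of the tumors was 0.08 around Lep (19 genes), -0.07 around Cidec (25 genes) and 0.09 around Pparg (19 genes), on the log2 scale. Around the other 7 genes it was -0.62 to 0.14, the lowest around Cd36, where 2 genes were counted.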

How the data were processed

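PolyA RNA of 4 mouse mammary tumors, 2 per genotype, had been made by the authors into strand-specific libraries and sequenced as 50-bp single-end reads. The authors aligned the reads to mm10 with TopHat2 2.0.10 and Bowtie 0.12.9, and estimated FPKM per gene, with a confidence interval, with Cufflinks 2.1.1; the deposited tables hold these FPKM values. The submitters' notes also name HTSeq and DESeq2 1.6.2, whose counts were not used here. The annotation behind the FPKM is not given in the sources used here. Coordinates are those of the tables (mm10, GRCm38), counted from 1, and all 10 genes overlap the protein-coding gene of the same symbol in GENCODE.

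Groups were taken from the sample labels. The tables were joined by symbol and position, rows that reached 1 FPKM in 2 or more tumors were kept (12752 of 23746), and log2(FPKM + 1) was fitted over all of them with limma 3.58.1 in R 4.3.3 (eBayes with trend). Fold changes are triple-mutant minus double-mutant. P-values were adjusted by the Benjamini-Hochberg method and called under 0.05. A pseudocount of 1 understates changes of low genes. The study's count test could not be used because the values are FPKM. Exact permutation was used for single values. The script was tested on simulated data. Named were the 10 members, in each other list the 3 tested genes with the largest change among those whose genotypes do not overlap and the 2 with the highest mean FPKM, the 10 genes nearest in pattern and the targeted genes; genes named outside this rule are marked or belong to a count. The 10 genes and the lists (7 of pathways, 7 of cell type markers) were chosen with earlier results of these data known. Cidea stands in 3 lists. FPKM lay outside its own Cufflinks interval for 12 of the 40 values of the 10 genes, so the interval midpoint was one alternative. Depth is unknown. Other alternatives were TPM, a filter of 5 FPKM or none, a pseudocount of 0.1, quantile and median-of-ratios scaling, limma without trend, genes of status OK, and each tumor left out.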

Additional observations from a re-analysis of the deposited data

How the results depend on the processing

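No paired analysis was possible because the genotypes share no replicate numbers and the sources give no pairs of littermates. None of the fat cell genes that could be tested (5 in the fit reported, 10 with no filter, 2 with the filter of 5 FPKM) passed limma's adjusted p of 0.05 under the settings run, beside 1252 genes at an unadjusted p under 0.05 and 0 called of all genes in the fit reported. The number of all genes called was instead 6 with quantile normalization, 5 with limma without trend and 1 with the interval midpoint. Leaving out each tumor gave 6 to 10 genes higher in every double-mutant than in every triple-mutant tumor left, and a median log2 fold change over the 10 genes of -4.82 to -0.53. Fabp4 ranged from -4.79 to 0.57 and Pparg from -2.51 to 0.22, with the sign turned for Fabp4 (0.41 without tumor 26043, 0.57 without tumor 26048) and for Pparg (0.22 without tumor 26048). These changes follow from the level in the tumor left out. The fitted difference of a fat cell gene changed sign in these 3 cases of 107 recomputed, and the median of another list in 10 of 180, 9 with a tumor left out and 1, that of the fat-restricted markers (0.26), with the filter of 5 FPKM. With no filter, adjusted p ran from 0.779 (Lpl) to 0.982 (Fabp4). Depth is unknown, and with 2 tumors per genotype a difference in fat cell RNA between genotypes and the choice of tumor cannot be told apart. For 13 of the 40 values of the 10 genes, 0 of them in tumor 26048, the Cufflinks interval reached 0, so low levels in the other tumors cannot be ordered firmly. The values of tumor 26048 were not firm either. There FPKM lay outside its own interval for 5 of the 10 genes, against 2, 2 and 3 in tumors 26043, 26044 and 26050.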

Other observations

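Rows that stood in tumor 26048 as the fat cell genes did, highest by at least 4 times on the FPKM + 1 scale, numbered 94 of 23746. They held 9 of the 10 fat cell genes, 20 genes of the other lists and 65 rows in no list, many of these microRNA and snoRNA genes with 0 FPKM in the other tumors. The genes that follow were named after their values were seen. Several are known from fat or liver metabolism: Slc36a2, an amino acid transporter of brown fat, had 17.5 FPKM in tumor 26048 and at most 0.133 FPKM elsewhere, Cpt1b, the fatty acid importer of mitochondria in muscle and brown fat, had 14.1 against at most 0.507 FPKM, and Kcnk3, a potassium channel found in brown fat cells, had 9.84 against at most 0.28 FPKM. Gys2, a glycogen synthase of liver and fat, had 3.77 FPKM against at most 0.0137 FPKM. Others come from elsewhere: Glycam1, made by the lactating gland and by lymph node vessels, had 996 FPKM in tumor 26048 and at most 0.146 FPKM elsewhere, Itih4, a plasma protein, had 80.9 against at most 0.062 FPKM, and Cftr, a chloride channel of epithelia, had 34.0 against at most 0.327 FPKM. On chromosome 6 lay 14 of the 94 rows (14.9%, against 5.24% of all rows), Cidec, Pparg, Gys2 and Cftr among them. Smarcad1, Mad2l1, Gng12, Gadd45a and E230016M11Rik all lie between chr6:65042667 and chr6:67080652. Cftr begins at chr6:18170687, near St7, which ends at chr6:17943022. Whether position has a part in these levels was not tested. None of these genes has a replicate of its high value.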
